A study of Homo sapiens with 6 samples.

Results

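The miR-200 family comprises 9 of the 2656 mature miRNAs in the count table, taken by name. From chromosome 1 these are hsa-miR-200b-3p, hsa-miR-200b-5p, hsa-miR-200a-3p, hsa-miR-200a-5p and hsa-miR-429, and from chromosome 12 hsa-miR-200c-3p, hsa-miR-200c-5p, hsa-miR-141-3p and hsa-miR-141-5p, where 3p and 5p name the arms of a hairpin; the prefix hsa, for human, is left out from here on. They were compared by locus between K562 cells that respond to azacitidine and K562 cells made resistant by growth in rising concentrations of the drug for over 4 months, with 3 libraries of each form labelled as biological replicates. K562 is an established human leukaemia line, given as a myeloblast in the labels, and azacitidine is a cytidine analogue that lowers DNA methylation. Both forms grew in the same RPMI medium with serum and antibiotics, the letters NT end all 6 library names without explanation, and the labels do not say whether the drug was present at harvest. No separate selections of resistant cells are named, so the p-values measure the spread between these libraries.

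The miR-200 family is known as a guardian of the epithelial state. Its members repress ZEB1 and ZEB2, transcription factors that silence E-cadherin and drive the epithelial-to-mesenchymal transition (EMT), and ZEB proteins in turn bind E-boxes in the promoters of both miR-200 loci and repress them. Each locus makes 1 transcript that carries several hairpins, and the locus on chromosome 12 is known to be silenced by DNA methylation in many non-epithelial cells.

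The guide strands, the arms loaded preferentially into Argonaute, fall into 2 groups by seed, the bases at positions 2 to 8 that select targets. They are shown because the comparison turns on which locus fills each seed group. Sequences are RefSeq's (build GRCh38.p14), 5′ to 3′, with the seed in capitals.
miR-200c-3p: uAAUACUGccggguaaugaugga
miR-200b-3p: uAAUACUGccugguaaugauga
miR-429: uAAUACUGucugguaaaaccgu
miR-141-3p: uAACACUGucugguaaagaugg
miR-200a-3p: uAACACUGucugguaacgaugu
Among the 2370 mature miRNAs of the reference table, these were the only carriers of either seed, with 3 for the first and 2 for the second. The seeds differ at 1 base, which is U4C between miR-200b-3p and miR-200a-3p with positions counted from the 5′ end. Within a seed group the loci make near-identical RNAs: miR-200b-3p and miR-200c-3p differ at U11G and A22G over their shared 22 bases, and miR-200a-3p and miR-141-3p at C17A and U22G. How the authors assigned reads that match 2 members is not given in the sources used here, so some reads of one locus may be counted for the other.

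The hairpins of chromosome 1 lie on the plus strand in the non-coding host gene MIR200BHG, with MIR200B at chr1:1167104-1167198, MIR200A at chr1:1167863-1167952 and MIR429 at chr1:1169005-1169087. Those of chromosome 12 lie on the plus strand in the non-coding host gene MIR200CHG, with MIR200C at chr12:6963699-6963766 and MIR141 at chr12:6964097-6964191, which leaves 330 bases between them.

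Resistant replicate 3 stood apart from the other libraries. Its log2 CPM (counts relative to library size, scaled by trimmed mean of M values, TMM) correlated with the other 5 libraries at r = 0.805 to 0.887 across 768 tested miRNAs, against 0.957 to 0.996 among those 5. It had the lowest total, 3291500 counts, where the others had 5660055 to 12563945. Annotations that resemble fragments of other RNAs held 4.96% of its counts, against 1.01% to 1.70% elsewhere. How far it deviated from the other 2 resistant libraries tracked GC content in the mature sequence (log2 scale, Spearman's rho 0.709 across 677 miRNAs, which are not independent replicates). Results are therefore given with and without it, and the part that RNA quality or depth plays was not tested. Of 8 listed blood cell miRNAs, 7 passed the filter on low counts, and their summed level was 17522 to 20160 CPM in sensitive and 20859 to 64870 CPM in resistant libraries. miR-486-5p, an erythroid miRNA, made up most of the sum in resistant replicate 3 (63305 CPM), and it was at 4744 to 6215 CPM in sensitive libraries and at 13140 and 9582 CPM in resistant replicates 1 and 2. The other 6 tested markers had negative log2 fold changes, and the median of the 7 was -0.75, or -0.17 with resistant replicate 3 left out. With all libraries none of the 7 was called, where 4.17% of all tested miRNAs were. Without resistant replicate 3, where 28.1% were called, miR-486-5p was called higher (2.07-fold, adjusted p = 0.00218 by edgeR). In that fit miR-223-3p was called lower (1.99-fold, adjusted p = 0.00733 by edgeR) and no other marker was called. Of 3 epithelial markers, miR-205-5p was at 0 in all sensitive libraries and at most 0.151 CPM in resistant ones, and miR-203a-3p was at most 0.511 CPM in any library. miR-375-3p, which endocrine cells also make, averaged 83.4 ± 28.8 CPM over sensitive and 70.4 ± 21.6 CPM over resistant libraries (SD, n = 3 each). The summed level of the 3 was 50.3 to 102 CPM in sensitive and 50.8 to 93.1 CPM in resistant libraries.

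The fold changes of the guide strands differed in sign between the loci. miR-200c-3p, the guide strand of chromosome 12 and the most abundant member in both forms, rose in resistant cells, while the 3 guide strands of chromosome 1 had negative log2 fold changes (-0.75 to -1.53) that did not pass the test with all 6 libraries. Of the 5 members that passed the filter on low counts, 1 was called higher and 0 lower with all 6 libraries (edgeR quasi-likelihood test, Benjamini-Hochberg adjusted p under 0.05 over 768 miRNAs). Over all tested miRNAs 4.17% were called, 2.08% higher and 2.08% lower. At an unadjusted p under 0.05, 2 of the 5 passed, miR-200c-3p and miR-200a-3p, where 26.7% of all tested miRNAs did. DESeq2 called miR-200a-3p lower (adjusted p = 0.0290) and called 19.4% of all tested miRNAs. The 4 members that did not pass the filter were all 5p arms: those of miR-200b, miR-200a, miR-200c and miR-141. miR-429 and miR-141-3p passed the filter through the sensitive libraries, with 3 of those and 2 resistant ones at the needed level.

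**Figure D1:**
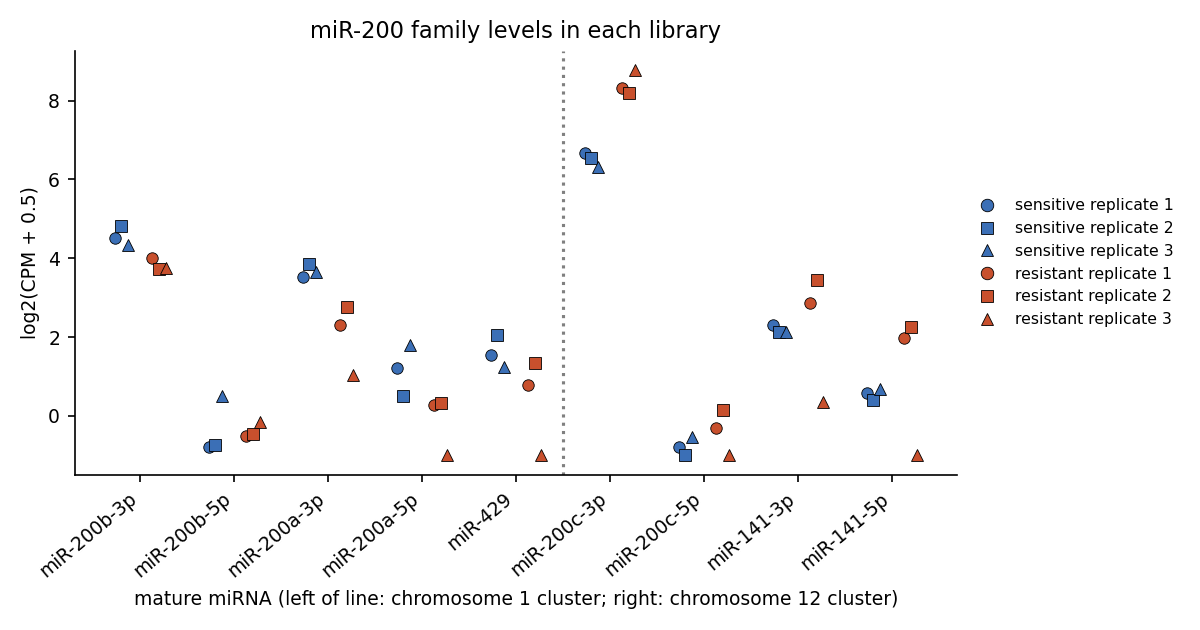
Level of each family member in each library as log2(CPM + 0.5) on the vertical axis, with sensitive libraries in blue and resistant ones in orange, one symbol shape per replicate number and no error bars. The 3 resistant libraries lie above the 3 sensitive ones for miR-200c-3p and below them for miR-200b-3p and miR-200a-3p. Of all tested miRNAs 41.8% separated the groups in one direction or the other. Resistant replicate 3 has 0 counts for miR-429, miR-200a-5p, miR-200c-5p and miR-141-5p.

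On chromosome 12, miR-200c-3p had 1223, 912 and 430 counts in sensitive replicates 1 to 3 and 3150, 3902 and 1114 counts in resistant replicates 1 to 3. As CPM these were 102, 93.1 and 79.6 in sensitive and 321, 294 and 438 in resistant libraries. The highest sensitive library stayed below the lowest resistant one, as happened in one direction or the other for 41.8% of all tested miRNAs, and for 53.3% when resistant replicate 3 was left out. The mean went from 91.5 ± 11.2 to 351 ± 76.2 CPM (SD, n = 3 each), a log2 fold change of 1.94 (± 0.38 SE, adjusted p = 0.0355 by edgeR). Without resistant replicate 3 the log2 fold change was 1.80 (± 0.22 SE, adjusted p = 9.62e-05 by edgeR). The call was lost without sensitive replicate 1, 2 or 3 (adjusted p = 0.240, 0.176 and 0.166 by edgeR) and without resistant replicate 1 (adjusted p = 0.0925 by edgeR), with log2 fold changes of 1.93 to 2.18. It stood without resistant replicate 2 (log2 fold change 2.28, adjusted p = 0.0496 by edgeR).

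miR-141-3p, the other guide strand of this locus, had 53, 38 and 21 counts in sensitive replicates 1 to 3 and 67, 139 and 2 counts in resistant replicates 1 to 3. As CPM these were 4.41, 3.88 and 3.89 in sensitive and 6.82, 10.5 and 0.786 in resistant libraries. Resistant replicates 1 and 2 were above all sensitive libraries, and resistant replicate 3 was below all of them. At the mean level of resistant replicates 1 and 2, resistant replicate 3 would have held 22.03 counts at its depth. With all libraries the log2 fold change was 0.63 (± 0.71 SE, adjusted p = 0.592 by edgeR). Without resistant replicate 3 miR-141-3p rose (log2 fold change 1.15 ± 0.31 SE, adjusted p = 0.0163 by edgeR), in a fit where 28.1% of 822 tested miRNAs were called, 13.7% higher and 14.4% lower.

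miR-141-5p, the less abundant arm of the same hairpin, had 12, 8 and 6 counts in sensitive and 34, 57 and 0 counts in resistant replicates 1 to 3. Without resistant replicate 3 it also rose (log2 fold change 2.06 ± 0.39 SE, adjusted p = 0.00206 by edgeR). It passed the filter there through the resistant libraries, which were both at or above the needed level against 1 sensitive library. In a fit of those 5 libraries without the filter, added after the data were seen, its log2 fold change was 2.03 (adjusted p = 8.14e-05 by edgeR, where 15.4% of 1693 miRNAs were called). With all 6 libraries and no filter it was 1.54 (adjusted p = 0.204 by edgeR, where 9.34% of 1734 miRNAs were called). miR-200c-5p, the passenger strand of miR-200c-3p, had 1, 0 and 1 counts in sensitive and 3, 8 and 0 counts in resistant libraries, too few for the filter.

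On chromosome 1, miR-200b-3p is the most abundant product. It had 267, 270 and 107 counts in sensitive and 153, 169 and 33 counts in resistant replicates 1 to 3, or 22.2, 27.6 and 19.8 CPM against 15.6, 12.8 and 13.0 CPM. The resistant libraries were all below the sensitive ones, where 41.8% of all tested miRNAs separated the groups in one direction or the other. Resistant replicate 3 lay between the other 2 resistant libraries. The means were 23.2 ± 3.98 and 13.8 ± 1.57 CPM (SD, n = 3 each), and the difference did not pass (log2 fold change -0.75 ± 0.37 SE, adjusted p = 0.232 by edgeR; without resistant replicate 3 -0.66, ± 0.27 SE, adjusted p = 0.0890 by edgeR). With a correction for GC content and all 6 libraries the sign turned (log2 fold change 0.21 ± 0.47 SE, adjusted p = 0.801 by edgeR), and with that correction and without resistant replicate 3 it was -0.40 (adjusted p = 0.263 by edgeR).

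miR-200a-3p had 133, 138 and 65 counts in sensitive and 44, 83 and 4 counts in resistant replicates 1 to 3. Its levels were 11.1, 14.1 and 12.03 CPM in sensitive and 4.48, 6.26 and 1.57 CPM in resistant libraries. Resistant replicate 3 was lowest and the groups did not overlap, as held in one direction or the other for 41.8% of all tested miRNAs. The means of 12.4 ± 1.55 and 4.10 ± 2.37 CPM (SD, n = 3 each) gave a log2 fold change of -1.53 (± 0.52 SE, adjusted p = 0.134 by edgeR). Without resistant replicate 3 miR-200a-3p fell (log2 fold change -1.14 ± 0.30 SE, adjusted p = 0.0139 by edgeR), and with the GC correction in those 5 libraries the call stood (log2 fold change -0.99, adjusted p = 0.0195 by edgeR).

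miR-429, which shares the seed of miR-200b-3p, had 29, 36 and 10 counts in sensitive and 12, 27 and 0 counts in resistant replicates 1 to 3. With all libraries it passed the filter through the sensitive ones, 3 of which reached the needed level against 2 resistant ones. The groups overlapped, since resistant replicate 2 (2.04 CPM) lay above sensitive replicate 3 (1.85 CPM). Its log2 fold change was -1.06 (± 0.73 SE, adjusted p = 0.369 by edgeR) with all libraries and -0.64 (± 0.43 SE, adjusted p = 0.304 by edgeR) without resistant replicate 3. The 0 counts in resistant replicate 3 allow a level of up to 1.18 CPM (3 counts), and 4.148 counts would have been present at the mean level of resistant replicates 1 and 2. Intervals and limits from counts cover counting error only.

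The 5p arms of chromosome 1 were sparse. miR-200a-5p had 22, 9 and 16 counts in sensitive and 7, 10 and 0 counts in resistant replicates 1 to 3. As CPM these gave 1.83, 0.919 and 2.96 against 0.712, 0.755 and 0. miR-200a-5p showed no overlap, and it was not among the tested miRNAs of which 41.8% separated the groups. It was not called in the fits that included it (log2 fold change -1.22, adjusted p = 0.130 by edgeR without resistant replicate 3, where it passed the filter through the sensitive libraries; -1.61, adjusted p = 0.240 by edgeR with all libraries and no filter). miR-200b-5p had 13 counts over the 6 libraries, at most 5 in one, and no direction can be read from them.

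Other settings changed how many miRNAs were called in all, and the members are read against that share. miR-200c-3p was the only member called with RLE (relative log expression) factors, where 2.73% of tested miRNAs were called, with library totals alone (5.6%), no filter (9.34%), a minimum mean of 10 CPM (2.78%) and limma-voom (5.21%). With limma-voom and library quality weights, 42.1% were called and the members were miR-200c-3p and miR-141-3p, higher, and miR-200a-3p and miR-200b-3p, lower. Without resistant replicate 3 and with the GC correction 27% were called, and the members were miR-200c-3p, miR-141-3p and miR-141-5p, higher, and miR-200a-3p, lower. Of these, miR-141-5p passed the filter through the resistant libraries. No member was called with the replicate number as a block (2.99%, or 3.52% with the GC correction), nor without sensitive replicate 1, 2 or 3 (0.624%, 0.5% and 0.6%) or resistant replicate 1 (0.858%). Without resistant replicate 2 (3.31%) miR-200c-3p was the only one.

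**Figure D2:**
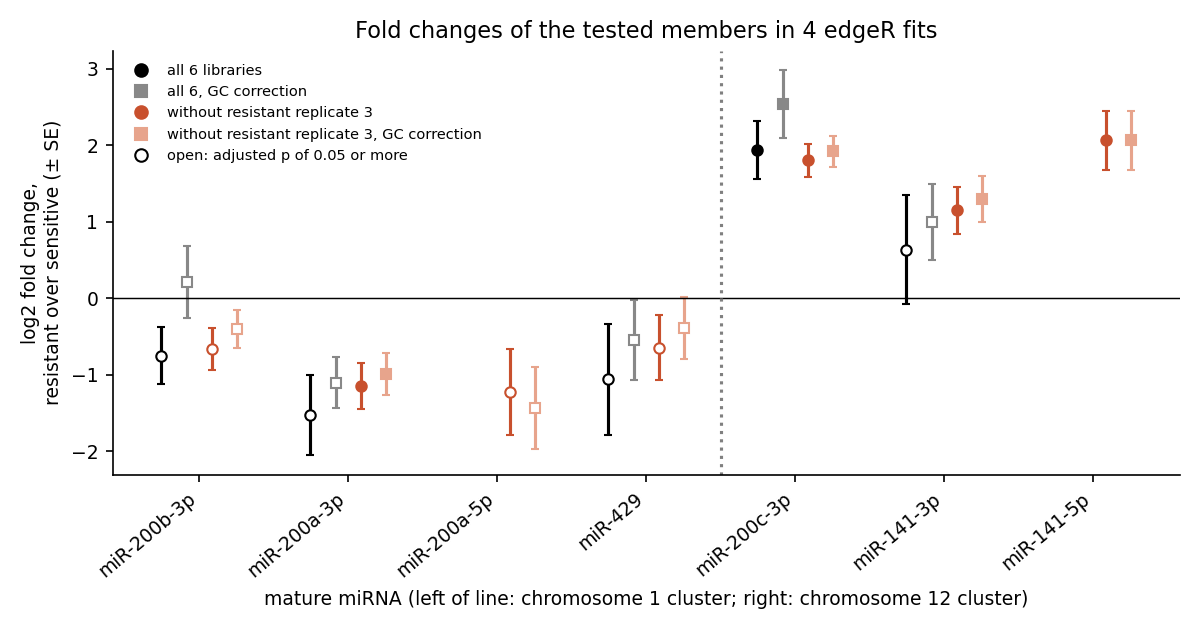
Log2 fold change of resistant over sensitive cells (vertical axis, bars ± SE) for the members that passed the filter, in edgeR fits with all 6 libraries or without resistant replicate 3, each with and without a GC correction. Filled symbols mark an adjusted p under 0.05: all 4 for miR-200c-3p, and those without resistant replicate 3 for miR-200a-3p, miR-141-3p and miR-141-5p. Of these, miR-141-5p passed the filter through the resistant libraries. The 4 values of miR-200b-3p run from -0.75 to 0.21.

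The signs of the 5 tested members were the same under 3 scalings: TMM factors, RLE factors and library totals alone. In that order miR-200c-3p was at 1.94, 2.09 and 2.04, and miR-200b-3p at -0.75, -0.64 and -0.58. Values relative to the median of all tested miRNAs are given for description. Subtracting the median removes a shift common to all miRNAs, so likeness of those values under the 3 scalings is no test. The median log2 fold change of all tested miRNAs was -0.11 with TMM factors, -0.01 with RLE factors and 0.09 with library totals alone. Relative to those medians, miR-200c-3p was at 2.05, 2.10 and 1.96, miR-141-3p at 0.74, 0.68 and 0.85, miR-200b-3p at -0.64, -0.63 and -0.67, miR-200a-3p at -1.42, -1.47 and -1.35 and miR-429 at -0.95, -1.01 and -0.87.

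The balance between loci can be read within each library, where scaling plays no part. miR-200c-3p had 4.58, 3.38 and 4.02 times the counts of miR-200b-3p in sensitive replicates 1 to 3 and 20.6, 23.1 and 33.8 times in resistant replicates 1 to 3. Every resistant library was above every sensitive one. On the log2 scale with 1 count added to each, the mean ratio went from 1.98 ± 0.22 to 4.64 ± 0.35 (SD, n = 3 each), a difference of 2.66 or 6.31-fold (two-sided exact permutation p = 0.1, the smallest that 3 against 3 libraries can give; 0.1 after adjustment over the 2 ratios computed). For the other seed, miR-141-3p had 0.399, 0.275 and 0.323 times the counts of miR-200a-3p in sensitive and 1.52, 1.67 and 0.5 times in resistant libraries. Here too the groups did not overlap, and the ratio in resistant replicate 3 rests on 2 and 4 counts. Of single tested miRNAs 41.8% also separated the groups, and the share for ratios of other pairs was not computed. The difference was 1.78 on the log2 scale (from -1.58 ± 0.26 to 0.20 ± 0.81, SD, n = 3 each), or 3.42-fold (two-sided exact permutation p = 0.1, and 0.1 adjusted over both ratios). Neither ratio can pass a threshold of 0.05 in this design.

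Summed by seed, the larger group was higher in resistant libraries and came almost wholly from 1 locus. miR-200b-3p, miR-200c-3p and miR-429 together were at 126, 124 and 101 CPM in sensitive and 337, 309 and 451 CPM in resistant replicates 1 to 3. The share of these counts from chromosome 12 was 80.5%, 74.9% and 78.6% in sensitive libraries (exact 95% binomial intervals 78.4% to 82.5%, 72.3% to 77.3% and 74.9% to 82.0%). In resistant libraries it was 95.02%, 95.2% and 97.1% (94.2% to 95.7%, 94.5% to 95.9% and 96.0% to 98.0%). miR-200a-3p and miR-141-3p together were at 15.5, 18.0 and 15.9 CPM in sensitive and 11.3, 16.8 and 2.36 CPM in resistant libraries, so the groups overlapped. The share of that seed from chromosome 12 was 28.5%, 21.6% and 24.4% in sensitive libraries (22.1% to 35.6%, 15.8% to 28.4% and 15.8% to 34.9%). It was 60.4% and 62.6% in resistant replicates 1 and 2 (50.6% to 69.5% and 55.9% to 69.0%), and 2 of 6 counts in resistant replicate 3.

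**Figure D3:**
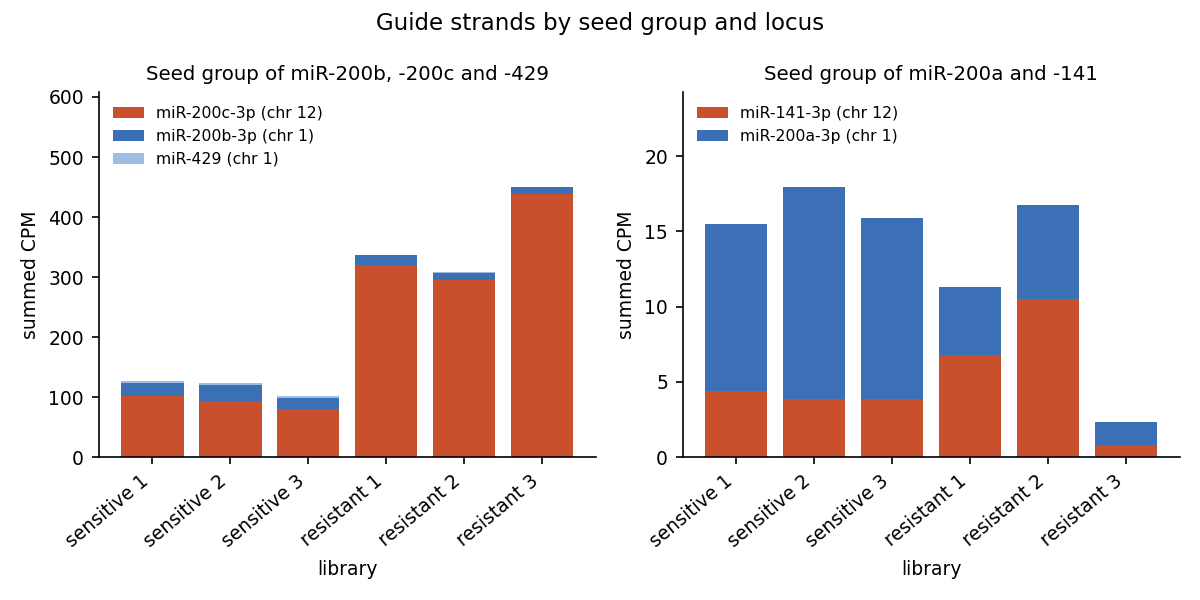
Summed CPM of the guide strands (vertical axis) in each library, stacked by member, for the seed group of miR-200b, miR-200c and miR-429 (left) and that of miR-200a and miR-141 (right), with chromosome 12 in orange and chromosome 1 in blue. The left bars are 101 to 126 CPM in sensitive and 309 to 451 CPM in resistant libraries; the right bars overlap between the groups, and their orange part is the larger one only in resistant replicates 1 and 2.

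All 9 members together made up 0.0139%, 0.0138% and 0.0117% of the counts in sensitive and 0.0418%, 0.0413% and 0.0351% in resistant replicates 1 to 3. By mean level, miR-200c-3p ranked 189 among the 768 tested miRNAs, miR-200b-3p 393, miR-200a-3p 492, miR-141-3p 550 and miR-429 693. In sensitive cells the order was miR-200c-3p, miR-200b-3p, miR-200a-3p, miR-141-3p, miR-429, miR-200a-5p, miR-141-5p, miR-200b-5p and miR-200c-5p. The ranges of neighbours did not overlap over the 3 libraries down to miR-429, whose range of 1.85 to 3.68 CPM overlapped with that of miR-200a-5p. In resistant cells miR-141-3p (6.03 ± 4.90 CPM, SD, n = 3) had a mean above that of miR-200a-3p, and the ranges of both overlapped. Levels of different miRNAs also carry the ligation preferences of each sequence.

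Members of 1 transcript did not keep the same proportions in all libraries. miR-200a-3p had 49.8%, 51.1% and 60.7% of the counts of miR-200b-3p in sensitive and 28.8%, 49.1% and 12.1% in resistant replicates 1 to 3. miR-141-3p had 4.33%, 4.17% and 4.88% of the counts of miR-200c-3p in sensitive and 2.13%, 3.56% and 0.180% in resistant replicates 1 to 3. Resistant replicate 3 had the lowest proportion of both. Against the level expected from resistant replicates 1 and 2, it held 1.42 times the counts of miR-200c-3p, 0.915 times those of miR-200b-3p, 0.293 times those of miR-200a-3p and 0.0908 times those of miR-141-3p. The GC content of these was 43.5%, 36.4%, 40.9% and 40.9%, in the same order.

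The share of the 5p arm differed between hairpins. The 5p arm gave 0% to 0.232% of the counts of the miR-200c hairpin in the 6 libraries and 0.369% to 4.46% of those of miR-200b. For miR-200a it gave 14.2%, 6.12% and 19.8% in sensitive and 13.7% and 10.8% in resistant replicates 1 and 2. For miR-141 it gave 18.5%, 17.4% and 22.2% in sensitive (exact 95% intervals 9.92% to 30.0%, 7.82% to 31.4% and 8.62% to 42.3%) and 33.7% and 29.1% in resistant replicates 1 and 2 (24.6% to 43.8% and 22.8% to 36.0%). Both resistant shares were above the 3 sensitive ones, while the interval of each resistant library overlapped with those of the sensitive libraries, and the difference was not tested. Resistant replicate 3 had too few counts of either hairpin to add to it.

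Fold changes across miRNAs rose with GC content, and the guide strands of the family lie below the median GC content of 47.8%. Spearman's rho was 0.565 over 677 miRNAs with all libraries and 0.330 over 729 without resistant replicate 3, with miRNAs not being independent. The 208 other tested miRNAs within 5 percentage points of the GC content of miR-200a-3p and miR-141-3p, which have the same value, had a median log2 fold change of -0.48. For the 199 near miR-200c-3p it was -0.38, and for the 181 near miR-200b-3p and miR-429 it was -0.61. miR-200c-3p (1.94) and miR-141-3p (0.63) were above the medians of their neighbours, and miR-200a-3p (-1.53), miR-429 (-1.06) and miR-200b-3p (-0.75) were below them. In the fit that left out resistant replicate 3 the medians were -0.24 near miR-200a-3p and miR-141-3p, -0.15 near miR-200c-3p and -0.24 near miR-200b-3p and miR-429, with miR-200b-3p at -0.66. These distances from the medians were not tested. With the GC correction and all libraries miR-200c-3p was at 2.54 (adjusted p = 0.0132 by edgeR, where 8.85% of tested miRNAs were called).

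**Figure D4:**
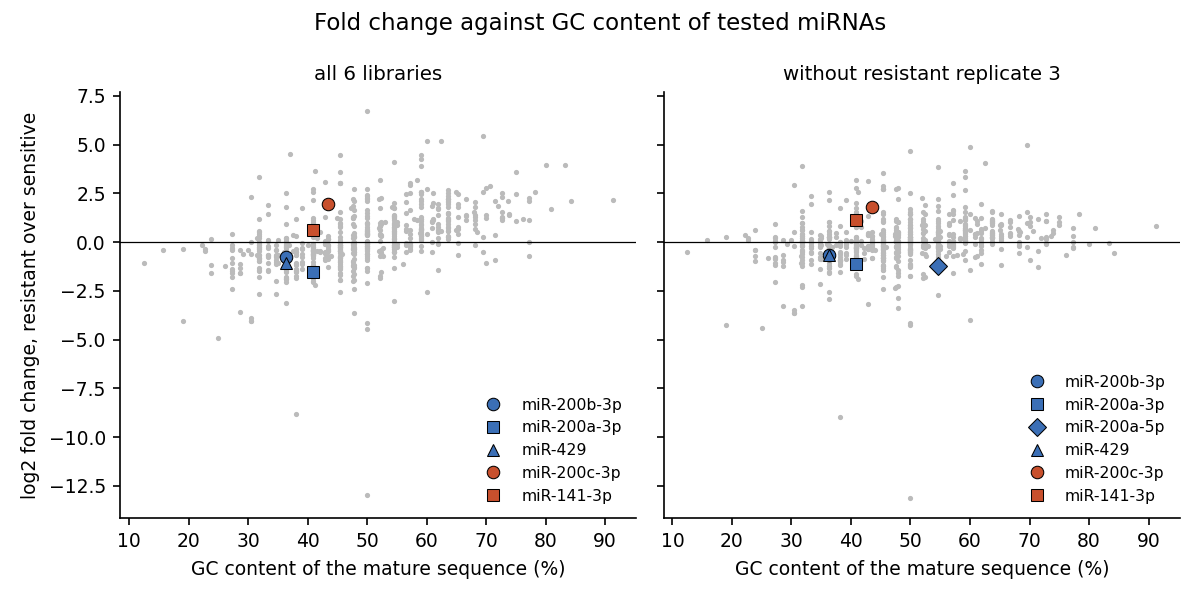
Log2 fold change of resistant over sensitive cells (vertical axis) against the GC content of the mature sequence in percent (horizontal axis) for the tested miRNAs with a sequence (grey points), with all 6 libraries (left) and without resistant replicate 3 (right); orange symbols are members on chromosome 12 and blue symbols members on chromosome 1. Grey points rise with GC content (rho 0.565 left, 0.330 right), and miR-200c-3p lies above the median of miRNAs of like GC content in both panels.

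The windows around the annotated starts of both host transcripts are shown for description, and no tie between their letters and the fold changes was tested. Each covers 250 bases before and 50 after the RefSeq start (GRCh38.p14, plus strand). Capitals mark the E-box letters CACCTG, searched on both strands, an element that ZEB proteins are known to bind. No other binding element was searched.
MIR200CHG, chr12:6962995-6963294: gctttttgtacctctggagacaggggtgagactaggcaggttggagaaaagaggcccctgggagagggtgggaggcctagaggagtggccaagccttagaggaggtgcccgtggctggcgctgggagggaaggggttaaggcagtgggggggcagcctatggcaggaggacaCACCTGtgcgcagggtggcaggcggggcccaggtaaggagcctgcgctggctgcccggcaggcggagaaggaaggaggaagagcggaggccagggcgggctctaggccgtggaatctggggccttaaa
MIR200BHG, chr1:1162627-1162926: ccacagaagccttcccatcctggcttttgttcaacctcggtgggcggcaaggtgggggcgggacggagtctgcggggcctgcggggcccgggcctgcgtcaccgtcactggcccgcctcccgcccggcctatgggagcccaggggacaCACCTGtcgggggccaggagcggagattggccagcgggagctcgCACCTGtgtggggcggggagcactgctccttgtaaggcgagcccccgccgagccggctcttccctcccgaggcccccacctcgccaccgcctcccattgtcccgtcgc
The window of MIR200CHG held 1 match to these letters, 78 bases before the start. That of MIR200BHG held 2, at 102 and 58 bases before its start. At least 1 match on either strand was present in 20.6% of 35116 windows of the same length, and at least 2 in 3.49%. CpG dinucleotides, the sites of DNA methylation, numbered 10 in the window of MIR200CHG and 26 in that of MIR200BHG, with a median of 14 over all windows. Methylation and binding were not measured here, and these matches are a description of the letters only.

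Other miRNAs tied to EMT were read from 2 lists chosen with earlier results of these data known. Of 20 miRNAs listed as repressing EMT, 12 were tested and 0 were called with edgeR, DESeq2 or limma-voom. Among all tested miRNAs 4.17%, 19.4% and 5.21% were called, in that order. By edgeR 0 had an unadjusted p under 0.05, against 26.7% of all. Their median log2 fold change was -0.37 against -0.11 over all tested miRNAs, and -0.03 against 0.04 without resistant replicate 3, with 6 positive and 6 negative. The most abundant, miR-148a-3p, which also targets DNMT1, averaged 13437 ± 1759 CPM over sensitive and 19253 ± 11734 CPM over resistant libraries (SD, n = 3 each, with a log2 fold change of 0.52, adjusted p = 0.592 by edgeR), and without resistant replicate 3 it rose 2.01-fold (adjusted p = 0.00134 by edgeR). Without that library 1 of the 12 was called higher and 1 lower, where 28.1% of all tested miRNAs were called.

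Of 10 miRNAs listed as promoting EMT, 9 were tested, 0 were called higher and 1 lower (2.08% of all tested miRNAs each way). Their median log2 fold change was -1.51 against -0.11 over all tested miRNAs. The one that fell was miR-181a-5p, a regulator of lymphoid signalling, which averaged 866 ± 169.6 CPM over sensitive and 163 ± 81.8 CPM over resistant libraries (SD, n = 3 each, with a log2 fold change of -2.42 ± 0.48 SE, adjusted p = 0.0355 by edgeR). With all libraries 6 of the 9 had an unadjusted p under 0.05 by edgeR, against 26.7% of all tested miRNAs. Of the 9, 3 had positive and 6 negative log2 fold changes. Without resistant replicate 3, 5 of the 9 fell and 1 rose (14.4% and 13.7% of all tested miRNAs). The median was then -1.33 against 0.04 over all 822 tested miRNAs. The members of this list come from many loci and act in blood cells too, and no list was tested as a set.

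For the leading member of each locus, the 5 miRNAs that correlated best with it over the 6 libraries were sought among 467 others that averaged 10 CPM or more. The correlation compares the pattern over the libraries, and neither the level nor the size of the change. For miR-200c-3p they were miR-675-3p (Pearson's r of log2 CPM 0.997), miR-675-5p (0.996), let-7a-5p (0.995), miR-4326 (0.992) and let-7b-5p (0.988). miR-675 is made from H19, the transcript the series is about. For miR-200b-3p they were miR-181d-5p (0.994), miR-7976 (0.970), miR-548s (0.969), miR-3144-3p (0.925) and miR-9-3p (0.924). These correlations describe 6 libraries that fall into 2 groups and share their depth and scaling.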

How the data were processed

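Small RNA was sequenced from 3 azacitidine-sensitive and 3 resistant K562 libraries (NEBNext small RNA kit and a NovaSeq instrument, per the labels' protocols). The authors deposited raw read counts per mature miRNA, whole numbers with differing totals, in 2656 named rows; the genome build, per the submitters' processing notes, is GRCh38, while the sources used here name no aligner, counter or miRBase release. Counts were fitted on the whole table with edgeR 4.0.16 (R 4.3.3): filterByExpr by group (minimum count 10, minimum total 15), TMM factors, quasi-likelihood F test without covariates, Benjamini-Hochberg adjustment and a threshold of 0.05. SE is the absolute log2 fold change over the square root of F. Alternatives were RLE factors, library totals, other filters, DESeq2 1.42.0, limma 3.58.1 (voom, with and without quality weights), the replicate number as a block, a per-library loess correction on GC content and leaving out each library. Scripts were tested on simulated counts. All members, the 5 miRNAs that correlated best with each locus's leading member, and called members of each EMT list (otherwise the most abundant) are named. Members and lists were chosen with earlier results of these data known. RefSeq held mature sequences for 8 of the 9 members.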

Additional observations from a re-analysis of the deposited data

How the results depend on the processing

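miR-200c-3p kept a positive log2 fold change in all 18 alternatives (1.69 to 2.54) and passed in 12. miR-141-3p kept a positive one in 17 and passed in 4. miR-200a-3p kept a negative one in 17 and passed in 5, and miR-429 kept a negative one in 17 and passed in 0. With all 6 libraries miR-429 and miR-141-3p passed the filter on low counts through the sensitive libraries. miR-200b-3p turned positive with the GC correction (0.21) and with that correction and the replicate block together (0.064). With the replicate block alone miR-200b-3p was at -0.75. The cause of the turn was not tested. Of the members, 2 of 5 tested were called with DESeq2 (19.4% of all tested miRNAs) and 4 of 5 with quality weights (42.1%). Without resistant replicate 3, 4 of 7 were called with the GC correction (27%) and 4 of 9 without a filter (15.4%). Over the fits that left out 1 library 0 to 4 were called, where 0.5% to 28.1% of all tested miRNAs were. The 4 called without resistant replicate 3 include miR-141-5p, which passed the filter, where one was used, through the resistant libraries. The 32 calls over all miRNAs became 21 with RLE factors, 162 without a filter, 13 with a minimum mean of 10 CPM (fewer miRNAs tested), 149 with DESeq2, 323 with quality weights, 68 with the GC correction, 222 without resistant replicate 3 with that correction, 261 without that library and filter, and 4 to 231 over the fits that left out 1 library. Of EMT-repressing miRNAs, 5 of the 12 tested were called with quality weights, where 42.1% of all tested miRNAs were. Without resistant replicate 3, 2 of 12 were called with the GC correction (27% of all tested miRNAs) and 2 of 19 without a filter (15.4%). When 1 library was left out 0 to 2 were called, where 0.5% to 28.1% of all tested miRNAs were. Of EMT-promoting miRNAs, 8 to 10 were tested by setting. Among them 0 were called with RLE factors (2.73% of all tested miRNAs) or the 10 CPM minimum (2.78%). Without a filter 3 were called (9.34%), and with the GC correction 3 (8.85%). DESeq2 called 5 (19.4%) and quality weights 6 (42.1%). The replicate block alone gave 2 (2.99%), and 2 with the GC correction (3.52%). Without resistant replicate 3, 6 were called with the GC correction (27%) or without a filter (15.4%). When 1 library was left out 0 to 6 were called, where 0.5% to 28.1% of all tested miRNAs were. With the replicate number as a block, 0 members were called, and 23 miRNAs in all (2.99% of those tested). miR-200c-3p was at 1.92 there (edgeR adjusted p = 0.108). With the GC correction added, 0 members were called, where 3.52% of all tested miRNAs were (miR-200c-3p 2.37, edgeR adjusted p = 0.0571). Same-numbered libraries deviated together at r = -0.08, 0.29 and 0.15. Sensitive replicate 1 correlated best with resistant replicate 3 (0.12), and sensitive replicates 2 and 3 with the resistant library of the same number. Deviations were taken within each group, where resistant replicate 3 stood apart, so these values cannot settle whether the numbers pair the libraries. The labels state no pairing, and the main fit used none. With a pseudocount of 0.5 the differences in the ratios between loci were 2.66 for miR-200c-3p to miR-200b-3p and 1.76 for miR-141-3p to miR-200a-3p. Both ratios kept their direction when each library was left out, which was fixed in advance because the groups did not overlap. With the replicate block the mean difference is the same by construction. Resistant replicate 3 held 0 to 4 counts of miR-429, miR-141-3p, miR-200a-3p and the 5p arms, which limits their values there.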
